A study of Mus musculus with 4 samples.

Results

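The D cyclins Ccnd1, Ccnd2 and Ccnd3 and 6 inhibitors of cyclin-dependent kinases, Cdkn1a, Cdkn1b, Cdkn2a, Cdkn2b, Cdkn2c and Cdkn2d, were followed in differentiating mouse embryonic stem cells. The 9 genes were taken by name, and they hold 13 of the 35656 transcript rows of each deposited table. Levels are in FPKM, that is, fragments for each kilobase of a transcript in every 1000000 that mapped, summed per gene. The mean over the libraries reached 1 FPKM for 8 of the 9 genes, so these 8 are among the 11716 genes tested, and Cdkn2c is described without a test.

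The series examined the role of the Evx1as/Evx1 locus in embryonic stem cells after withdrawal of LIF, the cytokine that holds such cells in self-renewal. The groups used here were wild-type CJ9 cells titled as carrying Cas9 alone (strain 129S4/SvJae), harvested at day 6 (2 libraries) and at day 4 (2 libraries) of culture in serum medium without LIF. Both groups therefore share the Cas9 background, the cell line and the withdrawal of LIF, and cells with a deletion were not analysed here. The culture text of the labels differs from the titles for 3 libraries, which it gives as 4 days (day 6 replicate 1), 2 days (day 4 replicate 1) and 6 days (day 4 replicate 2). No label ties the replicates of a day to separate cultures, so a p-value measures the spread between libraries, which may be technical.

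D cyclins accumulate in G1 phase in answer to growth signals and activate CDK4 and CDK6, which phosphorylate the retinoblastoma protein and release E2F factors. The INK4 proteins p16INK4a (Cdkn2a), p15 (Cdkn2b), p18 (Cdkn2c) and p19INK4d (Cdkn2d) block CDK4 and CDK6, and the Cip/Kip proteins p21 (Cdkn1a), p27 (Cdkn1b) and p57 (Cdkn1c) bind a wider range of cyclin and kinase pairs. Mouse embryonic stem cells are known for a short G1 phase and for low levels of D cyclins and INK4 inhibitors, both of which generally increase on differentiation.

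Several of the results concern genes with alternative transcription starts, so the DNA before those starts is shown. The Cdkn2a locus on the minus strand of chromosome 4 has 2 starts that feed a shared second exon read in different frames. The distal start (transcript NM_009877, 250 bases before it at chr4:89294620-89294869) gives p19ARF, a stabiliser of p53 that is no kinase inhibitor. The proximal start (NM_001040654, chr4:89282193-89282442) gives p16INK4a. Sequences are from RefSeq on GRCm38.p6, the assembly that mm10 stands for, read 5′ to 3′ on the gene's strand, and capitals mark matches to an E2F site.

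Cdkn2a distal start: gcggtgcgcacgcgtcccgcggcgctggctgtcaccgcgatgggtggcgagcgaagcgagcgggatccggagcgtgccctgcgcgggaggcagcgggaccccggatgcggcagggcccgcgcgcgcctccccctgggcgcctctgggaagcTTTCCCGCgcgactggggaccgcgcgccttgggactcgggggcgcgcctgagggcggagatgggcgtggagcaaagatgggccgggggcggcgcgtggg

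Cdkn2a proximal start: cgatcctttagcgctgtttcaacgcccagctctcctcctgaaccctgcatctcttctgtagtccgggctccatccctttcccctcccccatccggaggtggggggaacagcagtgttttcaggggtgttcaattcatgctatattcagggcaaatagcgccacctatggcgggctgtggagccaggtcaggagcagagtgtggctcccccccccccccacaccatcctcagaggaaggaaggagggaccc

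An E2F site was searched on both strands as TTTCCCGC, TTTGGCGC, TTTGCCGC or TTTCGCGC. The distal window held 1 match, 99 bases before the start, and the proximal window held 0, against 1.86% of 32851 promoter windows with a match. The distal window had 78.4% GC and 40 CpG dinucleotides, and the proximal window 7 CpG, beside medians of 52.4% GC and 6 CpG over all windows. A match describes letters and is not a measured binding site.

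Cdkn1a, on the plus strand of chromosome 17, also has 2 annotated starts. They are shown because nearly all of its RNA was assigned to 1 of them. The upstream start (NM_001111099) has chr17:29090729-29090978 before it and the downstream start (NM_007669) has chr17:29093519-29093768. Both annotated starts lie a few bases before those of the deposited rows. Capitals mark matches to the p53 half-site, the decamer consensus of p53, which is the best known activator of this gene.

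Cdkn1a upstream start: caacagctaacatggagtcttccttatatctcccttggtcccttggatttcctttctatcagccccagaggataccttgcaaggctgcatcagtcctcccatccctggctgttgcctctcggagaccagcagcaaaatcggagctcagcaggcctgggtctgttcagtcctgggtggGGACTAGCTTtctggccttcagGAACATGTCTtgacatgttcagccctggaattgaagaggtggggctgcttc

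Cdkn1a downstream start: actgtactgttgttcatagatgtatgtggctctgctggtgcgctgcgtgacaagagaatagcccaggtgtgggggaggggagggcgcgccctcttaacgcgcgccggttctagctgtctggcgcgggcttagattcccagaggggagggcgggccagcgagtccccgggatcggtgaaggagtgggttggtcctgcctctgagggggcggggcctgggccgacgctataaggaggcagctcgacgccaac

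The upstream window held 2 half-site matches, 73 and 51 bases before the start, and the downstream window held 0. The upstream window also lies before the downstream start, farther off than 250 bases. The 0 thus describes those 250 bases alone. Of all windows, 7.13% held a match. Ccnd3, on the plus strand of chromosome 17, likewise has a distant upstream start and a main start (NM_007632, chr17:47593217-47593466 before it), which is shown because that row carried nearly all Ccnd3 RNA. Capitals mark its GC box, GGGCGG on either strand, 46 bases before the start. This box does not overlap the gene's CCAAT box at 108 bases, and 32.7% of all windows held a GC box.

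Ccnd3 main start: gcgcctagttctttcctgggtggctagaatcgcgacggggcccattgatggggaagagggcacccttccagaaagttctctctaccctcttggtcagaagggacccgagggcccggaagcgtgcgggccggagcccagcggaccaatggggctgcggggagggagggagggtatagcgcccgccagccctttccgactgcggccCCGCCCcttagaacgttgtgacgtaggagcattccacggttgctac

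Promoter windows were at hand for 7 of the 9 genes, and Ccnd1 and Ccnd2 are named without one.

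The day 6 libraries resembled each other far more than the day 4 libraries did. By the culture text, day 4 replicates 1 and 2 had 2 and 6 days without LIF, and day 6 replicates 1 and 2 had 4 and 6 days. The part of this label conflict in the spread between replicates was not tested. Over the genes tested, the median absolute gap between replicates on the log2(FPKM + 1) scale was 0.19 at day 6 and 1.07 at day 4, and 1.76% of genes at day 6 and 52.9% at day 4 differed by over 1 log2 unit. The day 4 gap followed the GC content of the transcript: the median of replicate 2 minus replicate 1 was -1.65 for genes of 30 to 40% GC and 1.503 for genes of 60 to 70% GC. Depth read from the widths of the deposited intervals, in units of 1000000 fragments, was about 7.04 and 6.31 at day 6 and 4.27 and 4.25 at day 4. Reading depth this way assumes that the widths cover counting error only, which the sources used here do not state. The intervals are per library, so they do not measure the gap between replicates. Embryonic stem cell markers summed to 294 and 302 FPKM at day 6, against 938 and 985 FPKM at day 4, with none of the 10 at 0. Of these 10, 5 were lower at day 6 without overlap, among them Pou5f1 and Utf1, which held much of the day 4 sum. The 3 that were higher were Zfp42, Klf4 and Esrrb. Of all genes tested, 11.5% were lower and 41.6% higher without overlap. Fibroblast markers summed to 154 and 290 FPKM at day 6, against 11.2 and 12.1 FPKM at day 4, where Postn, Dcn and Lum were at 0, and Fap was at 0 in both day 6 libraries. Primitive endoderm markers summed to 275 and 252 FPKM at day 6, against 42.8 and 64.1 FPKM at day 4. Col4a1 held much of that sum, at 205 and 144 FPKM at day 6, against 24.3 and 48.3 FPKM at day 4. Afp was at 0 in the 4 libraries, and Ttr was at 0 in both of day 4. Blood and endothelial markers summed to 191 and 741 FPKM at day 6, against 4.58 and 1.57 FPKM at day 4. Hba-x (107 and 456 FPKM) and Hbb-bh1 (71.3 and 254 FPKM) held most of the day 6 sum. Both of these and Gata1 were at 0 at day 4. Primitive streak markers summed to 55.2 and 48.4 FPKM at day 6, against 320 and 914 FPKM at day 4. Of these 10 markers, 9 were lower at day 6 without overlap, where 11.5% of all genes tested were. Foxa2 was higher, at 4.44 and 5.375 FPKM at day 6, against 0.496 and 3.02 FPKM at day 4. These cell type markers moved with the days, and their part in the results below was not tested. In such bulk RNA, fewer cells of a type and less RNA per cell cannot be told apart.

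Between the days the D cyclin RNA differed in make-up: Ccnd1 was the member with the clearest difference, lower at day 6, and Ccnd3 made up most of the D cyclin RNA at day 6. Of the inhibitors, Cdkn2a, Cdkn2d and Cdkn1b stood higher at day 6 without overlap, the last 2 not with centring or quantile normalization. Cdkn1a stood lower. For Cdkn2a this separation held for both starts summed and for the p19ARF row, which gives no kinase inhibitor. Its p16INK4a row overlapped. Of the 8 genes tested, 3 were higher without overlap (41.6% of all genes tested were) and 2 lower (11.5% of all). With limma and Benjamini-Hochberg adjustment over all genes tested, 0 of the 8 passed a threshold of 0.05, and 0% of all genes did. Given the spread between the day 4 libraries and 2 libraries a day, the lack of a call says little about whether a gene differed. At an unadjusted p under 0.05 there were 2 of the 8, Ccnd1 and Cdkn2a, beside 15.3% of all genes. The median log2 difference of day 6 minus day 4 was 0.78 over the 8 genes and 0.51 over all genes tested.

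**Figure D1:**
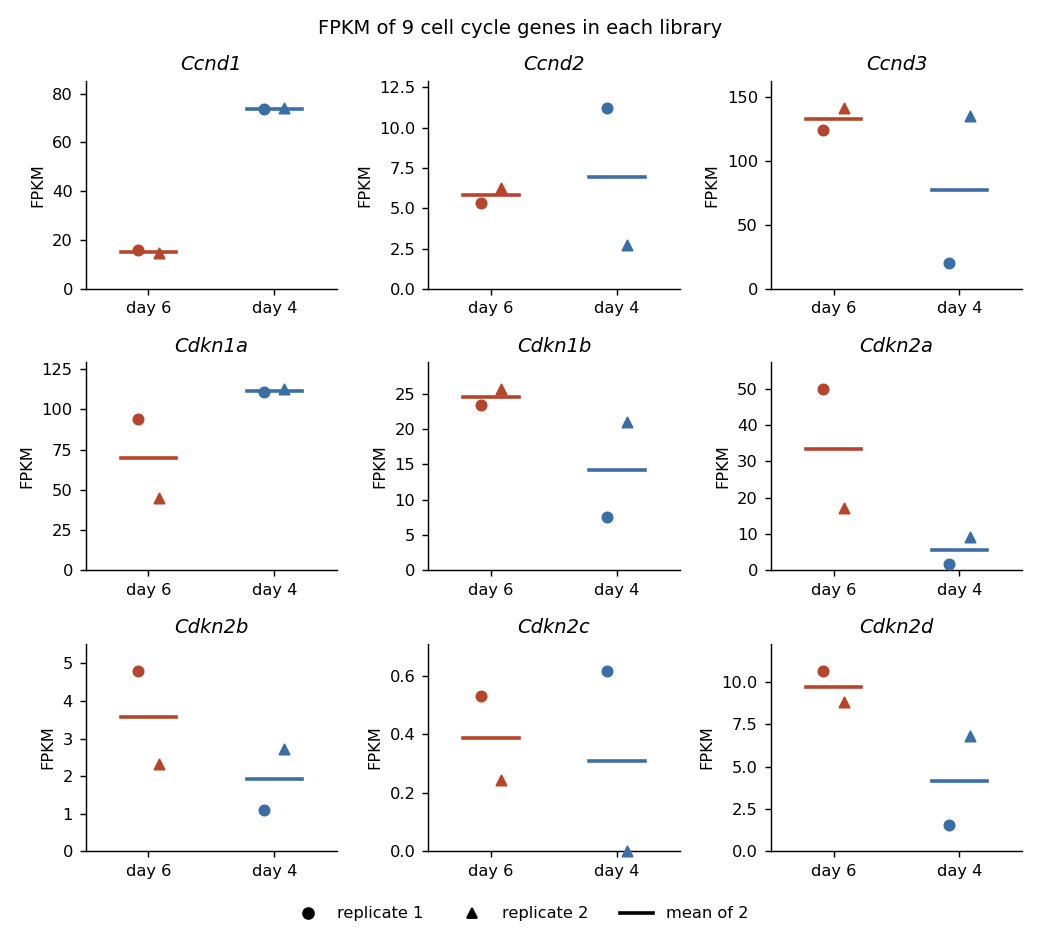
FPKM of each gene (vertical axes, linear, from 0) in the day 6 libraries (red) and the day 4 libraries (blue), with circles for replicate 1, triangles for replicate 2 and a bar at the mean of 2. Ccnd1 separates the days with little spread, and Ccnd3 spans 20.4 to 135 FPKM within day 4.

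Ccnd1, which encodes cyclin D1, a cyclin induced by mitogens and by Wnt signalling, lies on the minus strand of chromosome 7 (chr7:144929931-144939925, mm10). It measured 16.02 and 14.5 FPKM in day 6 replicates 1 and 2, against 73.5 and 74.0 FPKM in day 4 replicates 1 and 2. Both day 6 libraries were far below both day 4 libraries, and the replicates of each day lay close together. The means were 15.3 ± 1.04 FPKM at day 6, against 73.8 ± 0.357 FPKM at day 4 (SD, n = 2 each), a ratio of 0.207. On the log2 scale, day 6 minus day 4 gave -2.20, its standard error 0.42 (limma, adjusted p = 0.267), or -2.71 from the median of all genes. The day 4 libraries stood far apart on most genes, yet 98.8% of genes tested had a day 4 gap at least as large as that of Ccnd1. Within its library, Ccnd1 stood above 62.8 and 61.5% of the genes tested at day 6 and above 92.1% of them in each day 4 library. The difference was between -2.27 and -2.14 without any 1 library, with adjusted p from 0.000635 without day 4 replicate 1 to 0.9999 without day 6 replicate 1. Its locus overlaps LTO1 on the opposite strand over 1771 bases. Whether strand was used in counting is not given, so reads from such overlaps cannot be told apart. LTO1 measured 7.15 and 7.03 FPKM at day 6, against 5.42 and 3.52 FPKM at day 4.

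Ccnd2 encodes cyclin D2 (minus strand, chr6:127125709-127151048). It measured 5.31 and 6.29 FPKM at day 6, against 11.2 and 2.71 FPKM at day 4. The day 6 values lay between the day 4 values. The log2 difference was 0.0099 with a standard error of 0.71 (limma, adjusted p = 0.997). Its sign depended on which day 4 library was kept: it was 0.87 without day 4 replicate 1, with adjusted p = 0.0206, and -0.85 without day 4 replicate 2 with adjusted p = 0.0258 (limma). Adjusted p reached 0.9999 under the other settings. The transcript has 47.1% GC, and the day 4 gap of Ccnd2, -1.72, has the sign of the median gap of genes of 44 to 48% GC, -1.03. With a correction for GC content, Ccnd2 was lower in both day 6 libraries, with a log2 difference of -0.68.

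Ccnd3 encodes cyclin D3, and its main row lies on the plus strand at chr17:47593467-47599688. It measured 124 and 141 FPKM at day 6, against 20.4 and 135 FPKM at day 4. Day 4 replicate 1 was low, and the other 3 libraries lay close together, so the days overlapped. The log2 difference was 1.31 with a standard error of 1.00 (limma, adjusted p = 0.550), or 0.80 from the median of all genes. It was -0.025 without day 4 replicate 1 and 2.64 without day 4 replicate 2, with adjusted p from 0.00207 to 0.9999 over the settings tried. A day 4 gap as large as that of Ccnd3, 2.66 log2 units, was found in 10.96% of genes tested, and genes of 56 to 60% GC, as the Ccnd3 transcript is, had a median gap of 1.02. The main row held 97.9% or more of Ccnd3 FPKM in each library. The 2 rows of the distant upstream start reached 2.93 FPKM at most (NM_001081636, day 6 replicate 2, deposited interval 1.90 to 4.02). Ccnd3 overlaps Bysl on the opposite strand over 358 bases, and Bysl measured 27.2 and 20.2 FPKM at day 6, against 31.7 and 29.8 FPKM at day 4.

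Set side by side per length, the D cyclins summed to 145 and 162 FPKM at day 6, against 105 and 211 FPKM at day 4. The sum did not separate the days, but its make-up did. Ccnd1 supplied 11.02 and 8.98% of it at day 6 against 69.9 and 35.0% at day 4, and Ccnd3 supplied 85.3 and 87.1% at day 6 against 19.4 and 63.7% at day 4. Ccnd2 supplied 3.65 and 3.88% at day 6 and 10.7 and 1.28% at day 4. Ccnd1 exceeded Ccnd3 in day 4 replicate 1 alone, by a ratio of 3.61, against ratios of 0.129 and 0.103 at day 6 and 0.550 in day 4 replicate 2. An exact two-sided permutation test gave p = 0.333 for the Ccnd1 share and for the Ccnd3 share, the smallest p that 2 libraries against 2 can reach.

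**Figure D2:**
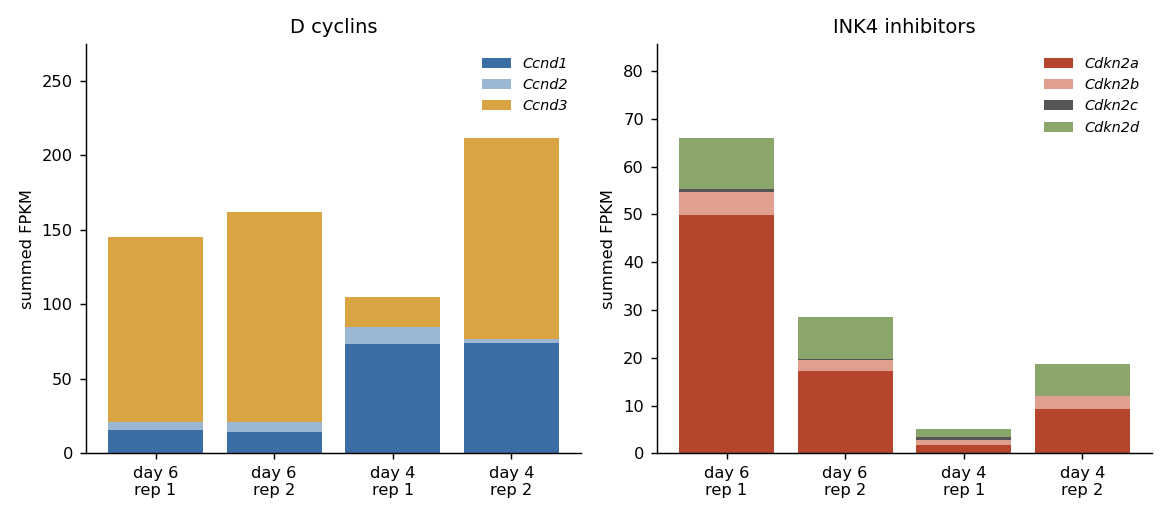
Summed FPKM (vertical axes, linear, from 0) of the D cyclins (left) and the INK4 inhibitors (right) in each library, with the part of each gene stacked. Ccnd1 makes up 11.02 and 8.98% of the D cyclin sum at day 6. Cdkn2a, with the p19ARF and p16INK4a rows counted together, is the largest INK4 part in both day 6 libraries.

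Among the INK4 genes, Cdkn2a, silent or nearly so in many young cell types and known for its induction in culture, measured 49.9 and 17.2 FPKM at day 6, against 1.77 and 9.22 FPKM at day 4. Both day 6 libraries were above both day 4 libraries, and the replicates of each day differed by a large ratio, 2.91 for replicate 1 over 2 at day 6 and 5.20 for replicate 2 over 1 at day 4. The means were 33.5 ± 23.1 FPKM at day 6, against 5.49 ± 5.27 FPKM at day 4 (SD, n = 2 each). The log2 difference was 2.51 with a standard error of 0.91 (limma, adjusted p = 0.319), or 2.00 from the median of all genes. It lay between 1.57 and 3.46 without any 1 library. The transcript has 60.2% GC, and with the correction for GC content the difference was 2.39.

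The rows of the 2 Cdkn2a starts differed in their order between libraries. The p19ARF row measured 33.6 FPKM (deposited interval 28.8 to 38.4) and 14.3 FPKM (11.2 to 17.5) in day 6 replicates 1 and 2, against 1.77 FPKM (0.253 to 3.29) and 0.000223 FPKM (0 to 0.517) in day 4 replicates 1 and 2. The p16INK4a row measured 16.3 FPKM (12.5 to 20.2) and 2.84 FPKM (1.16 to 4.49) at day 6, against 5.34e-05 FPKM (0 to 0.564) and 9.22 FPKM (6.05 to 12.4) at day 4. The p19ARF row thus held 67.4 and 83.5% of Cdkn2a at day 6 and nearly the whole in day 4 replicate 1, and the p16INK4a row held nearly the whole in day 4 replicate 2. About 5 fragments stand behind the p19ARF value of day 4 replicate 1 and about 34 behind the p16INK4a value of day 4 replicate 2, as the interval widths imply. The rows share all but their first exon, and how the quantifier divided the shared reads is not given, so the split between starts is less certain than the sum. Taken alone, the p19ARF row gave a log2 difference of 3.79 (limma, adjusted p = 0.2504), more than 1.5 times that of the sum.

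**Figure D3:**
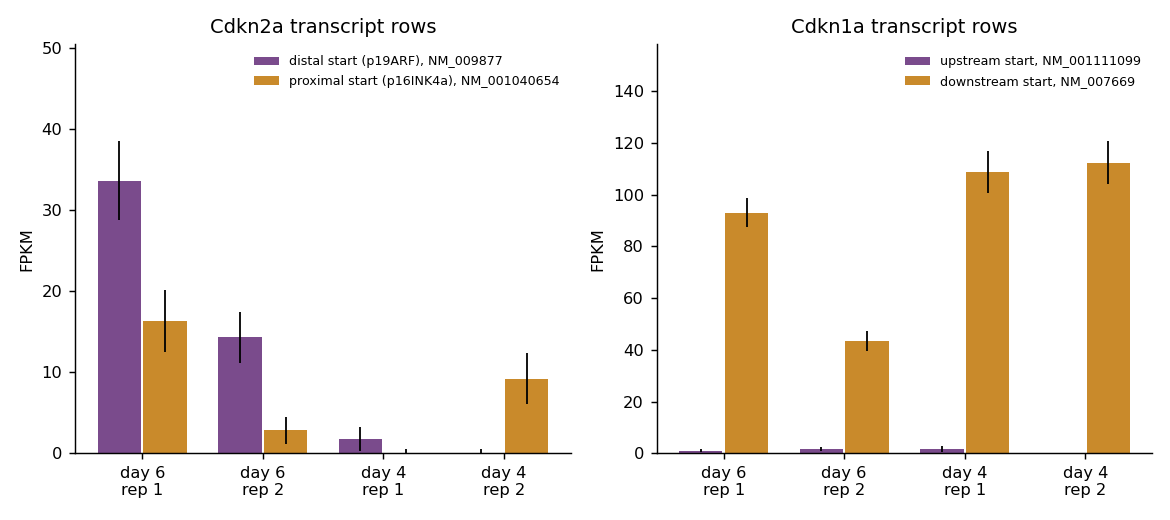
FPKM (vertical axes, linear, from 0) of the 2 start-site rows of Cdkn2a (left) and Cdkn1a (right) in each library, with black lines for the deposited intervals. The p19ARF row leads at day 6 and the p16INK4a row in day 4 replicate 2, and 1 Cdkn1a row carries nearly the whole in each library.

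Cdkn2b, the neighbour of Cdkn2a (minus strand, chr4:89306289-89311032) and a target of TGF-beta signalling, measured 4.80 and 2.33 FPKM at day 6, against 1.11 and 2.73 FPKM at day 4. The days overlapped. The log2 difference was 0.65 with a standard error of 0.54 (limma, adjusted p = 0.584). It was 0.020 with each library centred on its median, and -0.026 with quantile normalization.

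Cdkn2d (minus strand, chr9:21288464-21291209) measured 10.7 and 8.80 FPKM at day 6, against 1.58 and 6.79 FPKM at day 4. Both day 6 libraries were above both day 4 libraries, the nearer of which was replicate 2. Its log2 difference was 1.254 with a standard error of 0.68 (limma, adjusted p = 0.433), between 0.46 without day 4 replicate 1 and 2.05 without day 4 replicate 2. About 11 fragments stand behind the value of day 4 replicate 1. Cdkn2c (minus strand, chr4:109660876-109665372) measured 0.530 and 0.243 FPKM at day 6, was listed at 0.618 FPKM in day 4 replicate 1 and was listed at 0 in day 4 replicate 2. The deposited intervals reached 0 in both day 4 libraries and in day 6 replicate 2, so no difference in Cdkn2c was detectable at this depth.

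The INK4 genes together summed to 65.9 and 28.5 FPKM at day 6, against 5.08 and 18.7 FPKM at day 4. The days did not overlap (exact two-sided permutation p = 0.333, the smallest possible). This sum counts all Cdkn2a RNA, including the p19ARF row, which held 67.4 and 83.5% of Cdkn2a at day 6 and gives no kinase inhibitor. The p16INK4a row alone overlapped, at 16.3 and 2.84 FPKM at day 6, against 5.34e-05 and 9.22 FPKM at day 4. The p19ARF row held 14.3 of the 28.5 FPKM in day 6 replicate 2, against 0.000223 of the 18.7 FPKM in day 4 replicate 2. With that row left out, day 6 replicate 2 lay below day 4 replicate 2, so the days overlapped. With both starts counted, Cdkn2a supplied 75.7 and 60.2% of the INK4 sum at day 6 and 34.9 and 49.2% at day 4. Their kinases measured far more RNA: Cdk4 and Cdk6 summed to 380 and 316 FPKM at day 6, against 167 and 187 FPKM at day 4. The ratio of the INK4 sum to this kinase sum was 0.173 and 0.0902 at day 6 and 0.0304 and 0.100 at day 4, with overlap. The ratio of the D cyclin sum to the kinase sum was 0.383 and 0.512 at day 6 and 0.629 and 1.13 at day 4, lower in both day 6 libraries. These are ratios of RNA and say nothing of protein.

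Of the Cip/Kip genes, Cdkn1a, whose product p21 halts the cycle after p53 activation, measured 94.0 and 45.2 FPKM at day 6, against 111 and 112 FPKM at day 4. Neither day 6 value reached the day 4 values, though replicate 1 came near. Its log2 difference was -0.76 with a standard error of 0.56 (limma, adjusted p = 0.531), or -1.28 from the median of all genes. It was -1.29 without day 6 replicate 1 and -0.24 without day 6 replicate 2, and it was -1.39 with centring and -1.29 with the GC correction. The row of the downstream start held 96.2% or more of Cdkn1a in each library. The row of the upstream start measured 1.11 and 1.71 FPKM at day 6, against 1.66 and 0.00191 FPKM at day 4. The p53 half-sites shown above lie before both starts, within 250 bases of the upstream start only.

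Cdkn1b (plus strand, chr6:134920401-134925525), whose product p27 is removed by ubiquitin ligases as cells enter S phase, measured 23.5 and 25.6 FPKM at day 6, against 7.48 and 21.0 FPKM at day 4. Both day 6 libraries were above both day 4 libraries, by little over replicate 2. Its log2 difference was 0.90 with a standard error of 0.62 (limma, adjusted p = 0.510), or 0.39 from the median of all genes. It was 0.22 without day 4 replicate 1 and 1.59 without day 4 replicate 2. Its transcript has 43.1% GC, and its day 4 gap of 1.37 was opposite in sign to the median gap of genes of 40 to 44% GC, -1.47.

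**Figure D4:**
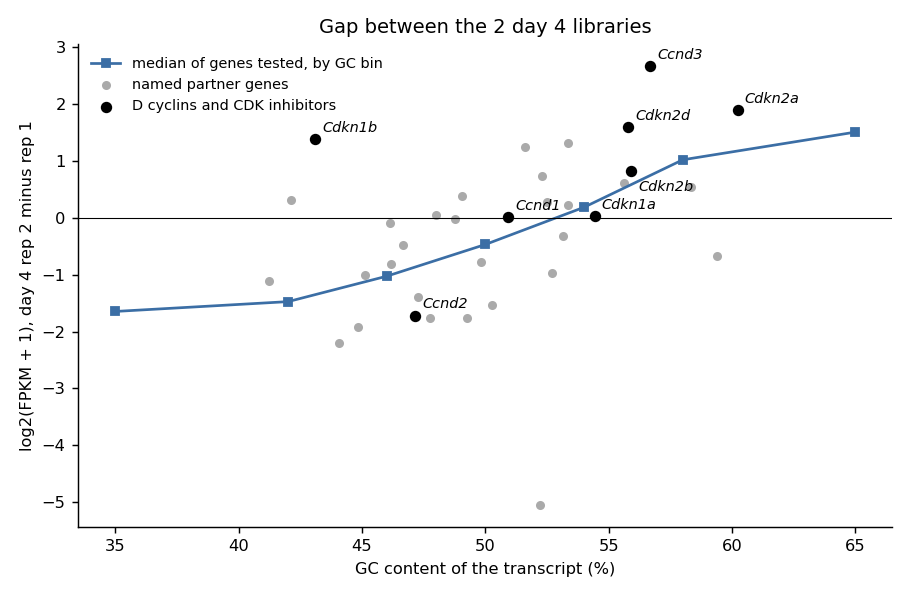
Gap between the day 4 libraries (vertical axis, log2(FPKM + 1) of replicate 2 minus replicate 1) against the GC content of the transcript (horizontal axis, percent) for the 8 tested genes (black), named partner genes (grey) and the median of genes tested in 7 GC bins (blue). The bin medians run from -1.65 to 1.503, with Ccnd1 and Cdkn1a near 0, Ccnd3 at 2.66 and Cdkn1b at 1.37.

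The separation of the days depended on the scaling for some of these genes. With each library centred on its median, and with quantile normalization, Cdkn2a stayed higher and Ccnd1 and Cdkn1a stayed lower without overlap, and Cdkn1b and Cdkn2d overlapped. Centring gave log2 differences of 0.68 for Ccnd3, 0.27 for Cdkn1b and 0.63 for Cdkn2d, each smaller than as deposited by over 1.5 times. With the GC correction, Cdkn2a and Cdkn2d were higher and Ccnd1, Ccnd2 and Cdkn1a lower. Over all genes the shares higher and lower were 20.25 and 26.44% with centring, 23.05 and 24.99% with quantile normalization, and 27.60 and 26.99% with the GC correction. The median log2 difference of all genes, 0.51 as deposited, was -0.12, -0.023 and 0.0014 in the same order.

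**Figure D5:**
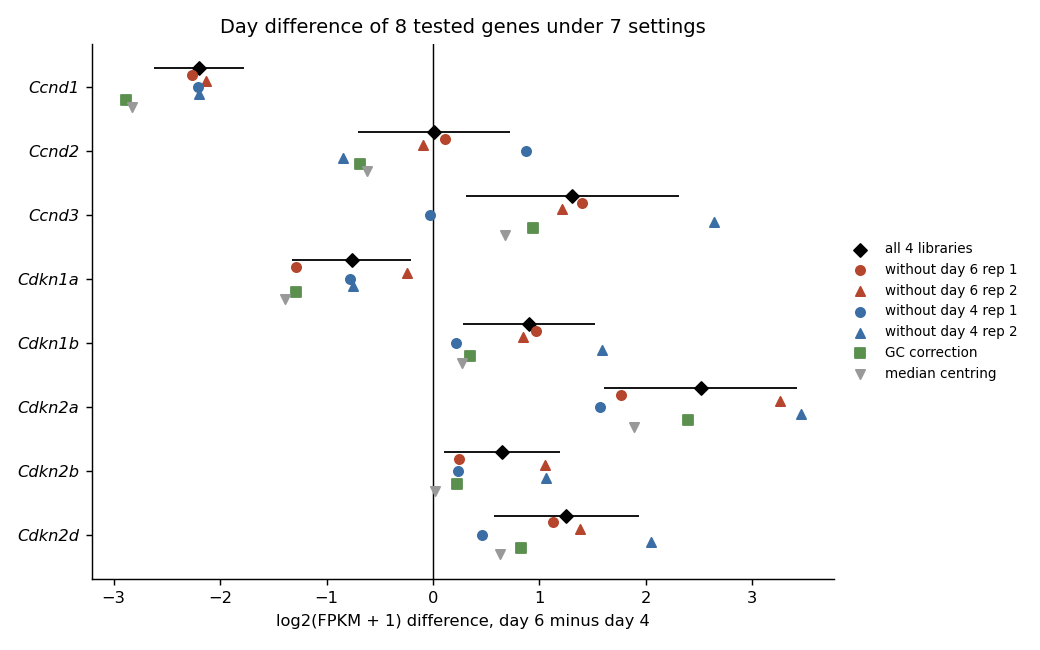
Log2(FPKM + 1) difference of day 6 minus day 4 (horizontal axis) for the 8 tested genes under 7 settings, with bars of 1 standard error on the fit with the 4 libraries. Ccnd1 stays between -2.89 and -2.14 and Cdkn2a between 1.57 and 3.46, and Ccnd2 lies on both sides of 0.

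Leaving out 1 of the day 4 libraries brought calls, where the lone library left is taken to have the spread seen at day 6. Without day 4 replicate 1, 2 of the 8 genes passed, Ccnd1 lower and Ccnd2 higher, beside 66.9% of all genes (49.9% higher and 17.0% lower). Without day 4 replicate 2, 6 of the 8 passed, Ccnd3, Cdkn1b, Cdkn2a and Cdkn2d higher and Ccnd1 and Ccnd2 lower, beside 51.9% of all genes (36.2% higher and 15.7% lower). Ccnd1 had nearly the same log2 difference in both fits, -2.21 without day 4 replicate 1 and -2.20 without day 4 replicate 2. The 2 fits share both day 6 libraries, and the share of all genes that held as steady was not counted.

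The order of the levels also differed. At day 6 the means ran Ccnd3, Cdkn1a, Cdkn2a, Cdkn1b, Ccnd1, Cdkn2d, Ccnd2, Cdkn2b and Cdkn2c, from 133 to 0.386 FPKM. Cdkn1a and Cdkn2a, and Cdkn2a and Cdkn1b, were neighbours whose ranges overlapped. At day 4 they ran Cdkn1a, Ccnd3, Ccnd1, Cdkn1b, Ccnd2, Cdkn2a, Cdkn2d, Cdkn2b and Cdkn2c, from 111 to 0.309 FPKM. Neighbouring ranges overlapped there except between Ccnd1 and Cdkn1b and between Cdkn2b and Cdkn2c.

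A second pattern ran within day 6, where Cdkn1a, Cdkn2a and Cdkn2b were all higher in replicate 1, by ratios of 2.08, 2.91 and 2.06. Gaps as large on the log2 scale were found in 1.59, 0.461 and 3.64% of the genes tested at day 6. Among p53 target genes, 16 of 17 tested, Sesn1 being the exception, were lower in day 6 replicate 2 than in replicate 1, and 13 of them by over 0.5 log2 units, where 56.5% and 8.26% of all genes tested were. The median log2 gap of replicate 2 minus replicate 1 was -0.80 over these targets and -0.05 over all genes. With 1 library on each side, this is a comparison of libraries without a test. The culture text gives 4 days for replicate 1 and 6 days for replicate 2, so a difference in time cannot be told apart. Blood and endothelial markers differed the other way, with 7 of 7 tested higher in replicate 2. Fibroblast markers had 1 of 7 tested lower in replicate 2, with a median gap of 0.63, and primitive endoderm markers had 2 of 9, with a median gap of 0.52. The part of cell make-up in the gap was not tested. Trp53 itself measured 246 and 188 FPKM at day 6, against 141 and 170 FPKM at day 4.

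Among the other genes of the G1 machinery, 22 of 23 were tested, and without overlap 9 were higher at day 6 and 2 lower, with a median log2 difference of 0.36. Over all genes tested, 41.6% were higher and 11.5% lower without overlap, with a median of 0.51, so these counts are near the background. None passed (limma), and 2 had an unadjusted p under 0.05, beside 15.3% of all genes tested. From this and the following lists, 27 genes were chosen by rule. Rb1 and Mdm2 among them changed the sign of their log2 difference under a scaling alternative. The difference moved by over 1.5 times or changed sign in 19 of the 27 with centring, 9 with quantile normalization and 19 with the GC correction. Cdkn1c, an imprinted gene for the Cip/Kip inhibitor p57, measured 234 and 326 FPKM at day 6, against 84.3 and 52.2 FPKM at day 4, a log2 difference of 2.04 with a standard error of 0.53 (limma, adjusted p = 0.270). Its level at day 6 exceeded those of Cdkn1a and Cdkn1b, and with it the Cip/Kip sum was 352 and 397 FPKM at day 6, against 202 and 186 FPKM at day 4. Without it the sum was lower at day 6, at 117 and 70.8 FPKM against 118 and 133 FPKM at day 4.

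The kinase partners of the D cyclins were not alike. Cdk4 measured 377 and 314 FPKM at day 6, against 155 and 181 FPKM at day 4, and Cdk6 measured 2.48 and 2.64 FPKM at day 6, against 12.3 and 5.65 FPKM at day 4. The days did not overlap for either, with Cdk4 higher and Cdk6 lower at day 6. For Cdk4 the log2 difference of 1.03 was 0.40 with centring, 1.02 with quantile normalization and 0.44 with the GC correction. For Cdk6 the log2 difference of -1.405 was -2.03, -2.10 and -2.06 in the same order. Cdk2, the partner of cyclins E and A, measured 34.1 and 32.5 FPKM at day 6, against 11.7 and 11.5 FPKM at day 4 (log2 difference 1.44, limma, adjusted p = 0.288). That difference was 0.81 with centring and 0.73 with the GC correction. Ccne1, cyclin E1, measured 27.02 and 23.9 FPKM at day 6, against 20.1 and 9.81 FPKM at day 4. E2f1, an activator of S phase genes, measured 12.7 and 14.3 FPKM at day 6, against 5.35 and 8.17 FPKM at day 4. With centring the log2 difference of Ccne1, 0.81 as deposited, was 0.18, and that of E2f1, 0.92 as deposited, was 0.30. With the GC correction they were 0.18 and 0.67. Rb1, the substrate of the D cyclin kinases, was low and overlapped, at 2.84 and 2.06 FPKM at day 6, against 3.06 and 0.886 FPKM at day 4.

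Genes for the turnover of p27 and D cyclins had 6 of 13 tested members higher at day 6 without overlap and 0 lower, and none passed (limma, 0 at an unadjusted p under 0.05). The share higher is near the 41.6% of all genes tested, of which 15.3% had an unadjusted p under 0.05 (limma). Their median log2 difference was 1.11, against 0.51 over all genes, and their median day 4 gap was -1.93, so day 4 replicate 2 was low for most of them. Skp2, the F-box protein that targets p27, measured 18.9 and 22.8 FPKM at day 6, against 13.9 and 2.92 FPKM at day 4, and its cofactor Cks1b 162 and 171 FPKM at day 6, against 95.4 and 27.3 FPKM at day 4. Cul1, the scaffold of that ligase, measured 26.9 and 25.7 FPKM at day 6, against 19.4 and 3.43 FPKM at day 4. Cul4a, the scaffold of another ligase, measured 32.8 and 35.4 FPKM at day 6, against 13.2 and 17.6 FPKM at day 4. Its adaptor Ddb1 was given as 351 and 376 FPKM at day 6, against 161 and 3.90 FPKM at day 4, and its log2 difference of 3.69 was 1.17 without day 4 replicate 2 and 6.21 without day 4 replicate 1.

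Upstream transcription factors had 6 of 18 tested members higher and 6 lower at day 6 without overlap, with a median of 0.26. None passed, and 3 had an unadjusted p under 0.05, beside 15.3% of all genes (limma). The shares over all genes were 41.6% higher and 11.5% lower as deposited, and 20.25% and 26.44% with centring, so how these counts stand to the background depends on the scaling. Tcf7 and Lef1, nuclear effectors of Wnt signalling, were lower at day 6, and a link to Ccnd1 was not tested. Of the other TCF genes listed, Tcf7l2 was also lower. Tcf7l1 overlapped, at 90.2 and 115 FPKM at day 6, against 120 and 91.5 FPKM at day 4. Tcf7 measured 20.8 and 21.96 FPKM at day 6, against 43.5 and 73.3 FPKM at day 4. Lef1 measured 9.87 and 8.98 FPKM at day 6, against 23.3 and 21.9 FPKM at day 4. Ctnnb1, beta-catenin, was higher at day 6, at 194 and 184 FPKM against 112 and 37.7 FPKM at day 4. Myc, an inducer of G1 progression, measured 26.4 and 26.2 FPKM at day 6, against 48.3 and 121 FPKM at day 4. Smad3, a TGF-beta effector that acts on Cdkn2b in other cells, measured 19.02 and 21.2 FPKM at day 6, against 3.13 and 2.29 FPKM at day 4 (log2 difference 2.51, limma, adjusted p = 0.267).

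The p53 target genes had 3 of 17 tested members higher and 2 lower between the days without overlap, with a median of 0.25. Over all genes tested, 41.6% were higher and 11.5% lower, with a median of 0.51. None of the targets passed, and 1 had an unadjusted p under 0.05, beside 15.3% of all genes (limma). Sesn1, a stress-induced sestrin, measured 3.65 and 5.39 FPKM at day 6, and was at 0.719 FPKM in day 4 replicate 1 and listed at 0 in day 4 replicate 2. Aen, a p53-induced nuclease, measured 41.5 and 23.3 FPKM at day 6, against 52.6 and 126 FPKM at day 4. Pmaip1 (Noxa), a cell death gene, measured 14.3 and 4.93 FPKM at day 6, against 15.1 and 18.9 FPKM at day 4. Perp measured 105 and 40.9 FPKM at day 6, against 35.4 and 36.6 FPKM at day 4. Mdm2, the ligase for p53, overlapped at 98.1 and 56.2 FPKM at day 6, against 62.3 and 35.2 FPKM at day 4. Pmaip1, Aen and Cdkn1a were lower in both day 6 libraries, and Perp and Sesn1 were higher.

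Proliferation genes had 6 of 18 tested members higher and 1 lower without overlap (41.6% and 11.5% of all genes tested). Their median was 0.58, beside 0.51 for all genes. None passed, and 0 had an unadjusted p under 0.05, beside 15.3% of all genes (limma). Mcm6, a subunit of the replicative helicase, measured 80.4 and 102 FPKM at day 6, against 48.5 and 17.8 FPKM at day 4. Cdk1, the mitotic kinase, measured 28.5 and 33.1 FPKM at day 6, against 16.1 and 4.03 FPKM at day 4. Aurkb measured 24.2 and 32.9 FPKM at day 6, against 14.0 and 17.1 FPKM at day 4, and Tyms 13.0 and 12.0 FPKM at day 6, against 8.86 and 6.03 FPKM at day 4. Cdc20, the 1 member that was lower, measured 70.3 and 77.1 FPKM at day 6, against 105 and 161 FPKM at day 4. With the GC correction the log2 difference was 0.0075 for Tyms and 0.196 for Aurkb, which were 0.70 and 0.83 as deposited.

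The genes most like Ccnd1 were those with the smallest mean absolute distance in centred log2(FPKM + 1) over the 4 libraries. They were Slc30a1, a zinc transporter, at 0.08, Slc27a2 at 0.11 and Bcl11a, a zinc finger transcription factor, at 0.12, where the median over genes tested was 1.37 and 17 genes lay within 0.2. Bcl11a measured 0.467 and 0.282 FPKM at day 6, against 4.33 and 4.36 FPKM at day 4. For Cdkn2a they were Lgals3, galectin-3, at 0.24, the linker histone gene H1f2 at 0.31 and Hyal1 at 0.33, and 0 genes lay within 0.2. Lgals3 measured 116 and 60.4 FPKM at day 6, against 9.31 and 35.5 FPKM at day 4. The likeness is over 4 libraries that differ in depth and GC response.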

How the data were processed

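Per the labels' protocols, mRNA was isolated and made into libraries with a TruSeq Stranded kit. CASAVA and TopHat2 2.0.11 with build mm10 are named in the submitters' processing notes, with the quantifier, annotation release and use of strand not given in the sources used here. The authors deposited 1 table of FPKM per library, with a lower and an upper bound per transcript row and, as an unscaled signal, the mean coverage. The other deposited column read, length, is in bases (a measure listed under other units). Rows were named from RefSeq (84.95%) and GENCODE M21, and 4.55% kept their ID. FPKM were summed per symbol and tested as log2(FPKM + 1), which understates changes of low genes, with limma 3.58.1 in R 4.3.3 (moderated by empirical Bayes, variance trended on the mean; two-sided p adjusted by Benjamini-Hochberg over 11716 genes of mean 1 FPKM or more). Simulated data were drawn with 1 pooled spread per gene for the 4 libraries, and changes were added to genes of higher level only. With the spread of the real libraries, the fit recovered the size of the changes and nearly always their sign. It called none of them at any size tried. With a smaller spread than the real one, it called 39 of 50 changes of 1 log2 unit and 50 of 50 at each larger size. That smaller spread also gave 15 false calls. The simulation left out the wider spread at day 4 and its tie to GC content. It therefore cannot show how well size and sign hold in these libraries. Fragments behind a value were estimated by taking the deposited interval as 2 Poisson SD each side. Genes and lists were chosen with earlier results of these data known. Named genes are the 9 members, 6 direct partners, up to 5 genes with the smallest p in each of 5 lists, and the 3 genes most like the most changed cyclin and inhibitor. Tcf7l1, Tcf7l2, Trp53 and cell type markers are named beside these. Starts in the tables count from 0 and were raised by 1. Alternatives changed the pseudocount, filter, scaling, GC, row, block, trend or library.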

Additional observations from a re-analysis of the deposited data

How the results depend on the processing

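No gene passed in the fit as reported (limma, 0 of 11716, with 1793 at an unadjusted p under 0.05), nor under the pseudocount of 0.1 FPKM, the filters, centring, quantile normalization, GC correction, single rows or no trend. With a replicate block, 67 genes and 0 of the 8 members passed. The replicate numbers are not tied to a shared culture, and the correlation of replicate deviations between the days was -0.09, so the block was kept as an alternative only. Leaving out 1 library gave 0 to 7837 genes called and 0 to 6 members called. The median log2 difference of the members lay between 0.15 and 1.33 under the alternatives, and this value is described without a test. Of 103 values of single members under the alternatives, 89 kept their direction and side of the threshold, 7 passed in the same direction, all without 1 of the day 4 libraries, and 7 changed sign. Ccnd2 changed sign with centring (-0.62), quantile normalization (-0.70), GC correction (-0.68), without day 6 replicate 2 (-0.09) and without day 4 replicate 2 (-0.85, against 0.87 without day 4 replicate 1). Ccnd3 did so without day 4 replicate 1 (-0.025, against 2.64 without day 4 replicate 2) and Cdkn2b with quantile normalization (-0.026). Rb1 changed sign with centring (-0.32), quantile normalization (-0.47), GC correction (-0.13) and without day 4 replicate 2 (-0.25, against 0.86 without day 4 replicate 1), and Mdm2 with GC correction (-0.026). The cause was not tested. Cdkn2b fell below the filter of 5 FPKM and has no value there. Depth limits Cdkn2c and the day 4 values of Cdkn2a, Cdkn2b and Cdkn2d.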
